A study of Mus musculus with 6 samples.

Results

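The glucocorticoid receptor and 6 genes of its pathway were examined in brown preadipocytes taken through adipocyte differentiation, with and without the microprotein MICT1. The genes were chosen by symbol (Nr3c1, Hsd11b1, Fkbp5, Tsc22d3, Sgk1, Zbtb16 and Errfi1), and all 7 were found among the 13283 genes of the deposited table. RNA-seq covered 6 libraries from brown preadipocytes of mouse (the immortalized BAT line) made to express Cas9. In 3 of them the cells carried a scrambled sgRNA (Scr, listed as genotype WT), and in the other 3 they came from CRISPR knockout pools of MICT1 (MICT1 KO). Such pools are mixtures of edited cells and not a single clone, and the labels do not say which of the sgRNAs each library received. All cultures were taken through the same brown adipocyte differentiation, whose induction medium holds dexamethasone, a synthetic ligand of the glucocorticoid receptor, together with isobutylmethylxanthine, insulin, T3, indomethacin and rosiglitazone. The maintenance medium that follows leaves dexamethasone out, and on day 6 both groups received 10 µM forskolin, an activator of adenylyl cyclase, for 6 h. No library was made without forskolin or with fresh glucocorticoid, so the values show how the groups differed in this state and not a response to hormone.

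Glucocorticoids cross the cell membrane and bind a receptor that waits in the cytosol in a complex with HSP90 and its cochaperones. The bound receptor enters the nucleus, where it raises transcription of some genes through response elements in DNA and lowers transcription of others, among them many cytokine genes. In adipose tissue the hormone can be regenerated inside the cell from an inert form, and glucocorticoid is a standard component of media that turn preadipocytes into adipocytes.

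In MICT1 KO cells the receptor gene and the gene of the hormone-regenerating enzyme were lower, whereas known target genes moved in both directions. Hsd11b1 fell 13.0-fold, Zbtb16 5.03-fold and Nr3c1 1.64-fold in the ratio of the group means. Sgk1 rose 3.16-fold, Errfi1 2.14-fold, Tsc22d3 1.43-fold and Fkbp5 1.18-fold. By limma-trend, 3 of the 7 genes were lower and 4 were higher at an adjusted p under 0.05, in a comparison where 56.9% of all 12507 genes tested passed (28.3% lower and 28.5% higher). The groups did not overlap in any of the 7 genes, as was also the case for 62.0% of the genes tested.

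**Figure D1:**
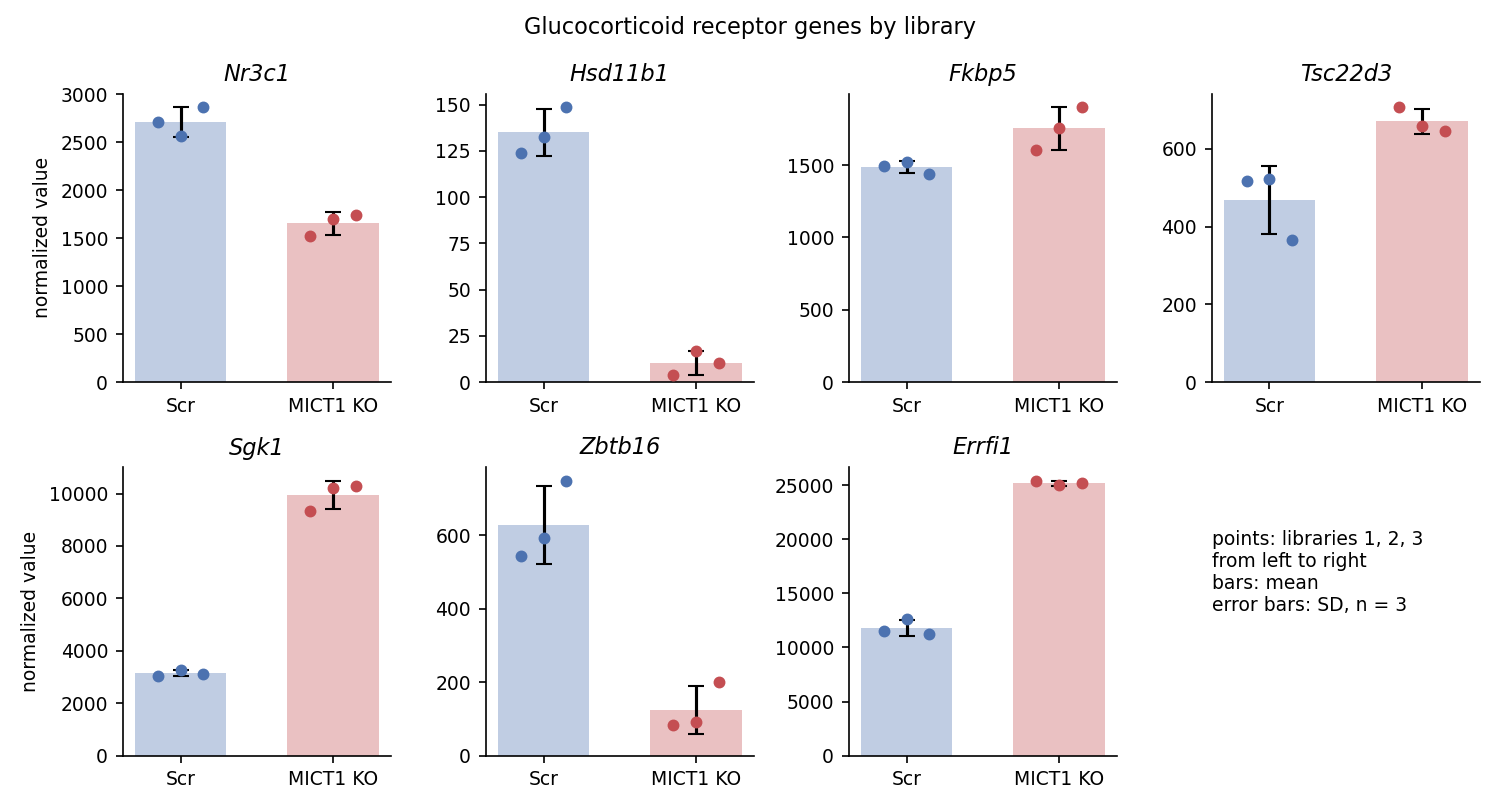
Normalized value (vertical axis of each panel, from 0) of the 7 genes in the 3 Scr libraries (blue) and the 3 MICT1 KO libraries (red), with bars for the mean and error bars for the SD (n = 3). The MICT1 KO points lie below all Scr points for Nr3c1, Hsd11b1 and Zbtb16 and above them for Fkbp5, Tsc22d3, Sgk1 and Errfi1.

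Sgk1 and Errfi1 each carry a complete response element, of different kinds, close to 1 of their annotated starts. The Sgk1 window is shown because it holds the site of the glucocorticoid receptor. The Errfi1 window holds the site of CREB, the factor that cAMP activates. Fkbp5 and Tsc22d3 rose too, and their windows held no complete element. Each is the 250 bases before a RefSeq start site on GRCm38, read 5′ to 3′ on the plus strand. Capitals mark the letters of a glucocorticoid response element before Sgk1 (chr10:21993640-21993889, element from 21993701 to 21993715) and of a cAMP response element before Errfi1 (chr4:150854820-150855069, element from 150855019 to 150855026).
Sgk1: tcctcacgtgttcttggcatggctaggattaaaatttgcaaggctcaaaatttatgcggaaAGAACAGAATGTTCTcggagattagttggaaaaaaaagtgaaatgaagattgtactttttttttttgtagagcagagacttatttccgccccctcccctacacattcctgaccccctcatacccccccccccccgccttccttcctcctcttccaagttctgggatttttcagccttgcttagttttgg
Errfi1: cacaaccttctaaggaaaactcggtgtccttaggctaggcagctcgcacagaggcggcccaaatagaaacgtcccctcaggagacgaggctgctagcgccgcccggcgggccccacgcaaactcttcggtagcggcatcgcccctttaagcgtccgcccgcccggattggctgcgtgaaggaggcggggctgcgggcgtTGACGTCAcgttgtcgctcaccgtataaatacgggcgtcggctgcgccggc
The Sgk1 element begins 189 bases and the Errfi1 element 51 bases before the start.

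The search covered both strands of 32851 such windows for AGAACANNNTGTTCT, the full glucocorticoid palindrome, for one arm of it (AGAACA or TGTTCT, which the full form contains), and for TGACGTCA, the cAMP response element. The full palindrome occurred in 3 windows (0.00913%), those of Sgk1, Acnat2 and Gm35041, of which only Sgk1 is in the expression table. The single arm was found in 16.1% and the cAMP response element in 1.55% of the windows. RefSeq gives 6 starts for Sgk1, 1 of them with the full palindrome and 3 with at least a single arm, and 2 starts for Errfi1, 1 of them with the cAMP response element. Of the 3 windows of Tsc22d3, 1 held a single arm, and the windows of Hsd11b1 and Fkbp5 (1 each) held none of these letters. Windows of Nr3c1 and Zbtb16 were not analysed here. A match describes the letters only, and which start was used in these cells was not measured. The search took exact letters in the 250 bases before each start. A window without a match therefore says nothing about sites elsewhere in the gene or with other letters.

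The values below are the authors' normalized signal, read as estimated reads per gene after scaling between libraries, with 16104600 to 16616800 in total per library. Fold changes on the log2 scale were computed from log2(value + 1), with the error that limma shares across genes. Correlations across genes were 0.987 to 0.990 within the groups and 0.929 to 0.940 between them. MICT1 was not among the genes analysed here and could not serve as a check of the labels. In bulk RNA, fewer cells of a type and less RNA per cell cannot be told apart, and this bears on each result below because RNA of adipocyte markers differed between the groups. Of 16 brown adipocyte markers 11 were in the table and 10 were tested, and 9 of these were lower in MICT1 KO libraries, with summed levels of 7150.1 to 8669.8 CPM (CPM is the value scaled to a common total per library) in Scr and 917 to 1306 CPM in MICT1 KO. Cidea, Dio2, Prdm16, Elovl3 and Cox8b are not listed. Fabp4, which the paper counts as adipogenic, and Lpl had the largest values of these markers in each library. Among thermogenic genes, Ucp1 stood at 20.8, 24.1 and 30.5 across the Scr libraries (log2 fold change -2.71). Ppargc1a did not exceed 8.90 in any Scr library and was not tested. Cox7a1 did not pass (log2 fold change 0.35, adjusted p = 0.141). The sum thus follows general adipocyte RNA and says little about thermogenic genes. Adipoq went from 733, 468 and 672 in Scr to 7.63, 3.16 and 5.18 in MICT1 KO (log2 fold change -6.66). Plin1 (-5.93) and Pparg (-2.31) were lower as well. The paper also reports lower adipogenic genes in its CRISPR knockout cells and calls it plausible that the deletion affected differentiation in culture. How far the MICT1 KO cells had differentiated was not tested here. Of 10 preadipocyte and fibroblast markers 8 were tested, 5 higher and 2 lower, at summed levels of 3573 to 4121 CPM in Scr and 8757.8 to 9670.7 CPM in MICT1 KO. Fn1 and Col1a1 had the largest values of this list in each MICT1 KO library. The lower genes were Dlk1 and Pdgfra (log2 fold change -0.19). Dlk1 went from 727, 661 and 674 in Scr to 58.2, 44.3 and 89.1 in MICT1 KO (-3.47). Endothelial (1 of 6 listed) and skeletal muscle markers (3 of 7 listed) summed to at most 2.03 and 6.15 CPM in any library. The part of these differences in the results below was not tested.

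Nr3c1 encodes the glucocorticoid receptor itself and lies on mouse chromosome 18. Its values were 2708, 2562 and 2867 in Scr cells, against 1522, 1701 and 1742 after knockout. All MICT1 KO libraries were low, and the gap between the groups was wider than the range within either. The mean fell by 39.0%, from 2712 ± 152 (SD, n = 3) to 1655 ± 117 (SD, n = 3). The log2 fold change was -0.71 (95% CI -0.85 to -0.58, SE 0.066, adjusted p = 9.63e-09), and 23.0% of the genes tested moved further in either direction. The receptor transcript was thus reduced and not lost.

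Hsd11b1 (chromosome 1, from 193221640 to 193264045) encodes the enzyme of the endoplasmic reticulum that regenerates active glucocorticoid from its inert 11-keto form. Values of 124, 133 and 149 in Scr cells stood against 3.81, 16.9 and 10.4 after knockout. The highest MICT1 KO library was thus far below the lowest Scr library. The mean went from 135 ± 12.6 (SD, n = 3) down to 10.3 ± 6.52 (SD, n = 3), with a log2 fold change of -3.77 (95% CI -4.58 to -2.96, SE 0.39, adjusted p = 4.89e-08). Only 43 of the genes tested fell further. The MICT1 KO values are few reads, so the size is imprecise: it was -3.25 without KO replicate 1 and -4.20 without KO replicate 2, and -3.28 with a pseudocount of 5. The gene passed the filter on low values mainly through its Scr libraries.

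H6pd makes the NADPH that this enzyme uses inside the endoplasmic reticulum. It was 1092, 980 and 1105 in Scr cells, against 684, 866 and 953 after knockout (log2 fold change -0.36, SE 0.098, adjusted p = 0.00405). The groups did not overlap, although the MICT1 KO libraries were spread more widely. Abcb1b and Abcb1a encode P-glycoproteins, pumps that can export steroids such as dexamethasone. Abcb1b rose from 664 ± 61.1 (SD, n = 3) to 2330 ± 218 (SD, n = 3), which is 1.81 on the log2 scale (SE 0.081, adjusted p = 8.19e-14), and Abcb1a rose by 1.34 on that scale (SE 0.10, adjusted p = 4.99e-10). These paralogs are similar in sequence, and how reads were divided between them is not given in the sources used here. Of 10 genes listed for the receptor and its steroid supply, Nr3c1 and Hsd11b1 included, 6 were tested, 3 were lower, 2 were higher and Srd5a1, a steroid reductase, did not pass (log2 fold change -0.041), in a comparison where 56.9% of all genes passed.

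Fkbp5 (chromosome 17, from 28398753 to 28486149) encodes FKBP51, a cochaperone that lowers the affinity of the receptor for hormone and is itself a classical receptor target. The Scr libraries gave 1495, 1521 and 1440 and the MICT1 KO libraries 1605, 1756 and 1898. The groups were separated by less than the spread among the MICT1 KO libraries. The log2 fold change was 0.24 (95% CI 0.093 to 0.38, SE 0.069, adjusted p = 0.00598), the smallest of the 7 genes, and 62.0% of the genes tested moved further. Without KO replicate 3 it was 0.18 and no longer passed (adjusted p = 0.0542), while it passed when any other single library was left out.

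Fkbp5 belongs to a list of 16 chaperones and cochaperones of the receptor, all of them tested, of which 10 were higher and 1 was lower (28.5% and 28.3% over all genes tested). The list's median log2 fold change was 0.24, compared with -0.0053 over all genes tested. Hsp90ab1, the constitutive HSP90, rose from 28417 ± 782 (SD, n = 3) to 39897 ± 1462 (SD, n = 3), or by 0.49 on the log2 scale (SE 0.054, adjusted p = 1.38e-07). The stress-inducible HSP70 genes Hspa1a (log2 fold change 1.78) and Hspa1b (0.67) rose as well, but they are near-identical copies and their separate values are uncertain. St13, a cochaperone that links HSP70 to HSP90, was the gene that fell, from 2690 ± 157 (SD, n = 3) to 2009 ± 73.1 (SD, n = 3).

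Tsc22d3 (chromosome X, from 140539528 to 140600522) encodes GILZ, a leucine zipper protein through which glucocorticoids restrain inflammatory signaling. Its values were 516, 522 and 366 in Scr cells, against 706, 659 and 646 after knockout. Scr replicate 3 was lower than the other Scr libraries, and the MICT1 KO libraries lay close together above all of them. The mean went from 468 ± 88.2 (SD, n = 3) to 670.2 ± 32.0 (SD, n = 3). The log2 fold change was 0.53 (95% CI 0.29 to 0.77, SE 0.11, adjusted p = 0.000488). It was 0.37 without Scr replicate 3 (adjusted p = 0.00320).

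Sgk1 (chromosome 10, from 21882184 to 21999903) encodes a serum- and glucocorticoid-regulated kinase of the AGC family. It measured 3044, 3283 and 3115 in Scr cells, against 9321, 10222 and 10295 after knockout. Every MICT1 KO library was high, with little spread on the log scale. Its mean rose from 3147 ± 122 (SD, n = 3) to 9946 ± 542 (SD, n = 3). The log2 fold change was 1.66 (95% CI 1.54 to 1.78, SE 0.056, adjusted p = 7.64e-16). This was the largest rise of the 7 genes, exceeded by 390 of the genes tested.

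Errfi1 (chromosome 4, from 150853796 to 150868889) encodes MIG6, an inhibitor of the EGF receptor kinase. In the Scr libraries it stood at 11492, 12652 and 11213, and in the MICT1 KO libraries at 25399, 24969 and 25147. The MICT1 KO libraries were nearly equal, and all lay far above the Scr libraries. The log2 fold change was 1.10 (95% CI 0.98 to 1.21, SE 0.055, adjusted p = 4.57e-13), with means of 11786 ± 763 (SD, n = 3) and 25172 ± 216 (SD, n = 3). It was the most abundant of the 7 per exon length, with a mean RPKM over the libraries above that of 99.2% of the 12202 tested genes with a length.

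Zbtb16 (chromosome 9, from 48651797 to 48836225) encodes PLZF, a zinc finger transcription factor that is strongly induced by glucocorticoid in many cell types. Values of 545, 594 and 749 in Scr cells compared with 83.9, 90.6 and 201 after knockout. KO replicate 3 was higher than the other MICT1 KO libraries but still well below every Scr library. The means were 629 ± 106 (SD, n = 3) and 125 ± 65.8 (SD, n = 3). This is a log2 fold change of -2.43 (95% CI -2.89 to -1.96, SE 0.22, adjusted p = 7.80e-09), and -2.82 without KO replicate 3. Among the genes tested, 143 fell further. The 5 targets among the 7 genes were thus not alike, with Zbtb16 lower and Fkbp5, Tsc22d3, Sgk1 and Errfi1 higher.

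**Figure D2:**
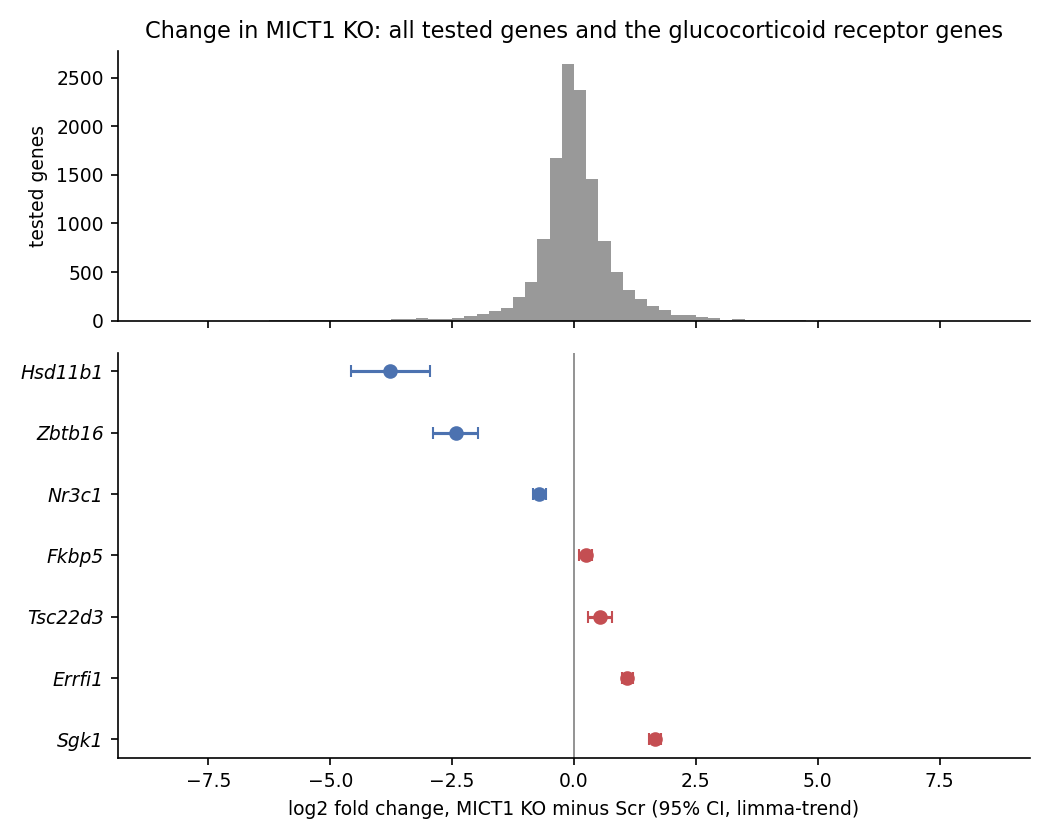
Upper panel, number of tested genes (vertical axis) by log2 fold change between MICT1 KO and Scr. Lower panel, the 7 genes on the same horizontal axis with their 95% confidence intervals from limma-trend, blue where lower and red where higher in MICT1 KO. No interval includes 0, and the fold changes themselves range from -3.77 for Hsd11b1 to 1.66 for Sgk1.

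The spread between replicates also differed within the set. The pooled SD of log2 values within groups was 0.066 for Errfi1, 0.069 for Sgk1, 0.090 for Fkbp5 and 0.093 for Nr3c1, below the median of 0.12 over the genes tested. It was higher for Tsc22d3 (0.21), Zbtb16 (0.52) and Hsd11b1 (0.69), and only 3.42% of the genes tested had a larger spread than Hsd11b1, whose MICT1 KO values are low.

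Levels were compared between genes per exon length, as RPKM (CPM per kilobase of exon) with the exon lengths of the GENCODE annotation. Each length joins all annotated exons of a gene, whichever transcripts the cells made. The order of genes with close levels therefore depends on these lengths and is uncertain. In Scr cells the order was Errfi1 (201 ± 10.9, SD, n = 3), Sgk1 (39.2 ± 0.947), Nr3c1 (21.6 ± 1.38), Fkbp5 (9.58 ± 0.271), Zbtb16 (7.27 ± 1.21), Tsc22d3 (6.59 ± 1.25) and Hsd11b1 (1.94 ± 0.172). Zbtb16 and Tsc22d3 overlapped in these libraries and the other neighbours did not. In MICT1 KO cells Errfi1 reached an RPKM of 431, 428 and 432 and Sgk1 of 124 ± 7.53 (SD, n = 3), followed by Nr3c1 (13.2 ± 1.01), Fkbp5 (11.4 ± 1.01), Tsc22d3 (9.46 ± 0.392), Zbtb16 (1.45 ± 0.771) and Hsd11b1 (0.149 ± 0.0946). The receptor and its cochaperone Fkbp5, well apart in Scr cells, overlapped in MICT1 KO cells, and Zbtb16 moved below Tsc22d3.

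**Figure D3:**
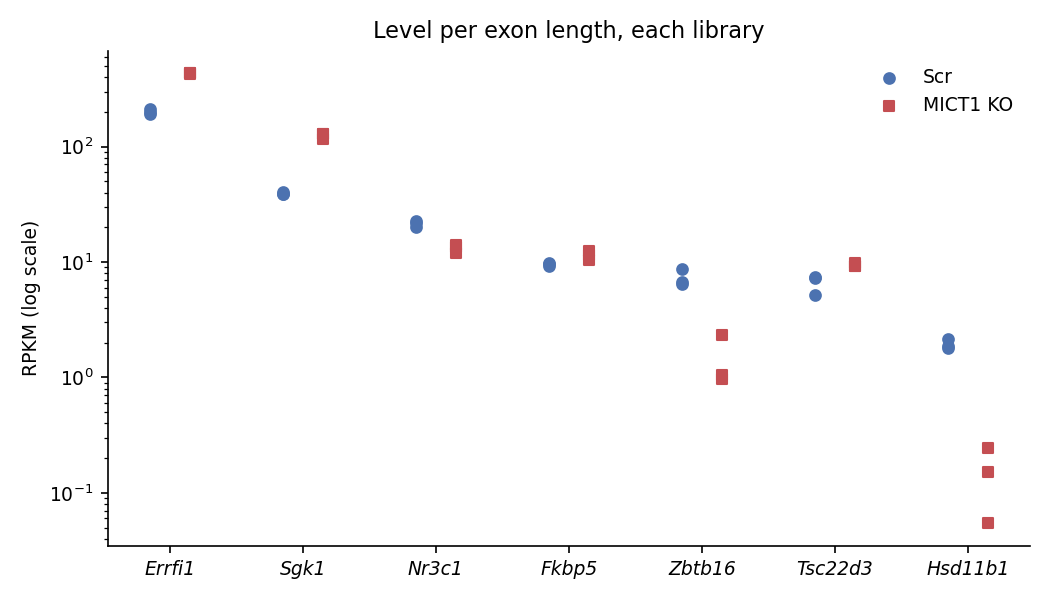
RPKM on a log axis for each library, with Scr as blue circles and MICT1 KO as red squares and the genes ordered by their Scr mean. Errfi1 is the highest in both groups, and the Hsd11b1 squares lie between 0.0546 and 0.244 RPKM.

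Coregulators are the proteins through which the receptor acts on transcription. Of 20 listed coactivators and corepressors 19 were tested, of which 9 were lower, 2 were higher and 8 did not pass. Their median log2 fold change was -0.16, and over all genes tested 28.3% were lower and 28.5% higher. Ppargc1b, a coactivator of mitochondrial genes that is enriched in brown fat, fell most, from 445 ± 42.2 (SD, n = 3) to 24.1 ± 5.86 (SD, n = 3), with a log2 fold change of -4.17 (SE 0.21, adjusted p = 3.41e-13). Nrip1, the corepressor RIP140, fell from 1761 ± 177 (SD, n = 3) to 811 ± 90.2 (SD, n = 3), or by 1.12 on the log2 scale. Ncoa1, the steroid receptor coactivator SRC-1, was 710 ± 41.4 (SD, n = 3) and 439 ± 47.5 (SD, n = 3) in the 2 groups (log2 fold change -0.70, adjusted p = 3.62e-06). Among the higher genes was Med14, a Mediator subunit, at 0.24.

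A wider list of 60 genes that glucocorticoids induce in many cell types, the 5 targets above included, held genes that moved in either direction. Of these 53 were in the table and 50 were tested, 23 lower, 18 higher and 9 not past the threshold, where 28.3% of all genes tested were lower and 28.5% higher. Their median log2 fold change was -0.21, beside -0.0053 over all genes. Among the falls, 11 were at least 2-fold on the log2 scale used, and among the rises 8 were, compared with 5.76% and 7.99% of all genes tested. The largest falls were those of Cdkn1c, an inhibitor of cell cycle kinases (-3.84), Agt, the precursor of angiotensin (-3.74), and Plin4, a lipid droplet coat protein (-3.66), each at an adjusted p of at most 5.29e-11. Plin4 went from 14681 ± 1311 (SD, n = 3) to 1172 ± 260 (SD, n = 3), in the same direction as the adipocyte markers. The largest rises were those of the stress-response genes Gadd45b (1.71) and Gadd45a (1.70) and of Lcn2, a secreted lipocalin of the acute phase response, which rose from 4340 ± 357 (SD, n = 3) to 14042 ± 899 (SD, n = 3). Many of these genes also respond to other signals, cAMP among them, and which signal moved them was not tested.

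On a list of genes that glucocorticoids repress in many cell types, members were higher almost throughout. The list was chosen with earlier results of these data known, so its counts are a description and not a test. Of 23 listed, 19 were tested, 18 of them higher and 16 at least 2-fold higher, where 28.5% of all genes tested were higher and 7.99% at least 2-fold higher. The list had a median log2 fold change of 2.70, where all genes tested had -0.0053. Il6, the cytokine interleukin-6, was 246, 258 and 164 in Scr cells, against 7635, 7302 and 6398 after knockout (log2 fold change 5.02, SE 0.12, adjusted p = 2.06e-18). No Scr library came near the MICT1 KO range. Csf3, the granulocyte colony-stimulating factor, rose from 14.3 ± 0.495 (SD, n = 3) to 370 ± 31.8 (SD, n = 3), and Cxcl10, a chemokine also induced by interferon, from 82.1 ± 10.3 (SD, n = 3) to 1778 ± 108 (SD, n = 3). Mmp9, a matrix metalloproteinase named here after its values were seen, was the gene called lower, at 9.89, 40.8 and 34.6 in Scr cells, against 14.3, 12.6 and 3.11 after knockout (log2 fold change -1.41, adjusted p = 0.0468), and the groups overlapped. That call was lost under other scalings and in some fits that left out a library. Immune cells also express such genes: of 10 macrophage markers 4 are listed, at summed levels of 16.6 to 23.1 CPM in Scr and 31.8 to 39.2 CPM in MICT1 KO, with only Cd14 higher and Adgre1, Ptprc, Lyz2, Itgam, Fcgr1 and C1qa not listed. Col1a1 (log2 fold change 0.77) is both on this list and among the preadipocyte and fibroblast markers. The part of immune cells, of fibroblast genes or of signals other than glucocorticoid in these rises was not tested.

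**Figure D4:**
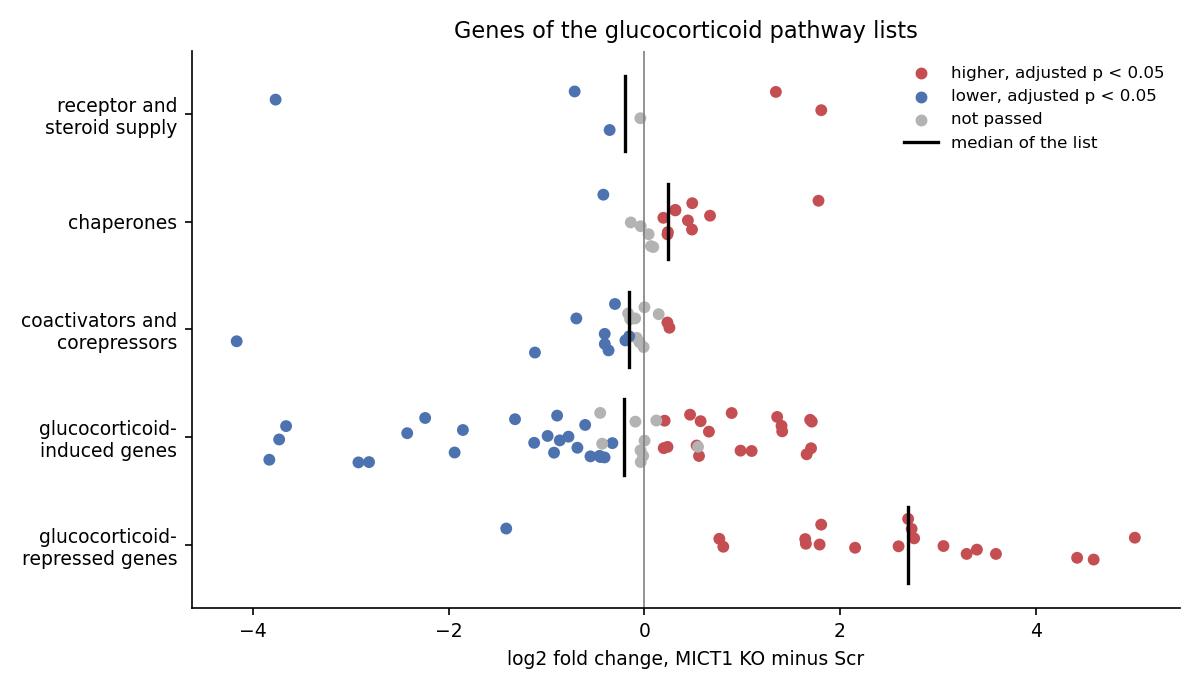
Log2 fold change between MICT1 KO and Scr (horizontal axis) of each tested gene in the 5 lists (rows), red where higher and blue where lower at an adjusted p under 0.05 and grey otherwise, with a black line for the median of the list. Genes induced by glucocorticoids spread to both sides, whereas 18 of 19 repressed genes lie on the right. The lists were chosen with earlier results of these data known.

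The gene whose profile over the 6 libraries was most like that of each gene was sought among the 9928 tested genes with a mean of at least 100, by Pearson correlation of log2(value + 1). It was Per3 for Nr3c1 (r = 0.9992), Dyrk2 for Hsd11b1 (0.9995), Myh9 for Fkbp5 (0.9951), Prl2c2 for Tsc22d3 (0.9968), Cdh2 for Sgk1 (0.9998), Atad3a for Zbtb16 (0.9997) and Trafd1 for Errfi1 (0.9998). The points are libraries of 2 groups, so any gene with a clear difference between the groups scores highly. For Sgk1 1470 genes had an r over 0.95, for Nr3c1 1252 and for Fkbp5 59. Per3 is a clock gene, and it was lower (-1.46) together with its relatives Per1 (log2 fold change -0.41) and Per2 (-0.89), both of which are on the list of induced genes. Cry2, another clock gene on that list, did not pass (log2 fold change -0.013).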

How the data were processed

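RNA-seq was analysed from 3 Scr and 3 MICT1 KO libraries, assigned by sample title, with the table's columns matched to those titles. The authors aligned reads to GRCm38/mm10 in Partek, and the submitters' processing notes also list STAR and DESeq2. The deposited values are a normalized signal per gene, not counts. They were read as estimated reads divided by a size factor per library, without correction for gene length. The counting model and annotation are not given in the sources used here, nor is use of strand. No exon of the 7 genes overlaps an exon of another gene in GENCODE vM21.

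The members and gene lists were chosen with earlier results of these data known. In R 4.3.3, limma 3.58.1 (limma-trend) was fitted to log2(value + 1) for the 12507 genes that reached 10 in 3 or more libraries, leaving out 776 genes, with Benjamini-Hochberg adjustment over all of them (threshold 0.05, two-sided). Adjusted p-values are from this fit, except those given for a left-out library or the replicate block. The fit was also tested on simulated data. Far fewer genes changed there than passed here, and all shared the same dispersion (spread beyond counting noise). That test therefore does not measure the error rate in these data. Beyond the 7 genes, those named were, per list, the 3 largest rises and 3 largest falls past the threshold with a mean of at least 50. Of these, 1 is not reported here. Mmp9, Srd5a1, Per1, Per2, Cry2, Col1a1 and the cell type markers singled out fall outside that rule and were named after their values were seen. For each of the 7, 1 gene of like profile was also named. With 3 libraries per group the error covers these cultures only, and an exact permutation test of a single value cannot give p below 0.1. Depth per gene is limited to estimated reads, so no counting interval is given. CPM and RPKM used the sum of each library's values. Windows before start sites came from RefSeq (GRCm38.p6), found for 5 of the 7 genes. Alternatives were other scalings, filters and pseudocounts, limma-voom, a replicate block, and each library left out in turn.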

Additional observations from a re-analysis of the deposited data

How the results depend on the processing

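Under the 14 alternatives, Nr3c1, Hsd11b1, Tsc22d3, Sgk1, Zbtb16 and Errfi1 kept their direction and their adjusted p under 0.05, and Fkbp5 did so in 13. Fkbp5 ranged from 0.18 to 0.30 (log2 fold change) when single libraries were left out, its adjusted p reaching 0.0542 without KO replicate 3. The number of chaperone genes called lower was 1 in the analysis reported and 2 with limma-voom, and ranged from 1 to 2 when single libraries were left out. The number of repressed genes called lower, Mmp9 alone, was 0 with library size scaling, upper quartile scaling, a filter at 50 or limma-voom, and 0 to 1 when single libraries were left out. The cause was not tested, except that the filter at 50 leaves Mmp9 out. Over all genes tested, the number called lay between 6383 and 7150 in these fits. Upper quartile scaling moved the median of all genes to 0.030 and no other setting moved it more.

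With the replicate number as a block, 7055 genes were called in place of 7113, and Fkbp5 kept its call at 0.24 (adjusted p = 0.00657). Libraries sharing a number did not deviate together (correlations across genes of -0.024, -0.015 and 0.064), and control replicates 1 and 2 each correlated best with another number, so the block was not used as a pairing. The low MICT1 KO values of Hsd11b1 limit how precisely its fall is known.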
